A study of Drosophila melanogaster with 12 samples.

Results

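Glutathione S-transferases were examined as a gene family in direct RNA sequencing of *Drosophila* heads. Members were all genes whose symbol in the deposited isoform table begins with Gst followed by a capital letter, with the abundances of their isoforms summed. This gave 35 genes with 54 isoforms, of 13970 genes and 30738 isoforms listed. By class letter there were 11 genes of class D (delta), 14 of class E (epsilon), 3 of class O (omega), 1 of class S (sigma), 4 of class T (theta) and 2 of class Z (zeta). The rule reads the symbol only and uses no measured value. It leaves out transferases with other names, such as *se*, *Mgstl* and *gfzf*, which are given further on as related genes.

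Controls were *elav-Gal4/+*, which carry the neuronal driver without a target gene, and tau transgenic *Drosophila* were *elav-Gal4/+;UAS-tauR406W/+*, in which the same driver expresses human tau with the R406W mutation of frontotemporal dementia throughout neurons. Both genotypes therefore share the driver, and no group with the tau transgene but no driver was analysed here. Each of the 3 control and 3 tau libraries was made from polyadenylated RNA of 500 heads taken at day 10 of adulthood, from equal numbers of males and females. A head holds brain, retina, fat body, muscle, glia and blood cells, so a level is an average over tissues that do and do not express the transgene, and in such bulk RNA fewer cells of a type and less RNA per cell cannot be told apart.

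Glutathione S-transferases join the thiol of the tripeptide glutathione to reactive or foreign molecules, which makes these more soluble and ready for export from the cell, and some members also reduce peroxides or act as isomerases. The delta and epsilon classes are the expanded classes of insects and are best known for clearing insecticides, plant toxins and products of lipid peroxidation. The omega, sigma, theta and zeta classes are older and occur in mammals as well. In *Drosophila*, part of the family is induced by oxidative stress through the transcription factor CncC, the counterpart of mammalian Nrf2, and *GstD1* is a widely used readout of that response.

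Abundance is given as TPM, the number of reads assigned to a gene per 1000000 reads assigned in the library. Transcript length does not enter it, so it is a share of the molecules read and may be compared between genes. Between 573001 and 910700 reads were assigned in control libraries and between 684408 and 1329915 in tau libraries, so that 3 reads, taken as the floor, correspond to between 2.26 and 5.24 TPM. Of the 35 genes, 28 averaged 5 TPM or more across all 6 libraries and were tested, which required no level in either genotype alone. Of 210 gene values of the family, 209 came out as whole reads within a tolerance of 0.02 reads, so almost no read was left divided between neighbouring members. The exception was *GstE12* in control replicate 1.

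The family was dominated by 3 genes. *GstD1*, *GstE12* and *GstE9* together made up between 61.9% and 63.0% of all transferase TPM in the control libraries and between 67.8% and 68.9% in the tau libraries, so the share was higher in all 3 tau libraries. Averaged over all libraries, *GstD1* was at 989.6 TPM, *GstE12* at 766 TPM and *GstE9* at 488 TPM, and these levels rank 163, 202 and 311 among the 8963 genes tested. The next genes were far lower. *GstO3* was at 125 TPM, *GstO2* at 110.1 TPM, *GstS1* at 109 TPM, *GstT4* at 90.1 TPM, *GstE6* at 86.2 TPM and *GstD9* at 75.7 TPM. In controls, *GstS1* (92.1 to 134 TPM) overlapped with *GstO3* (129 to 139 TPM) and *GstO2* (109 to 122 TPM). *GstS1* also overlapped with *GstT4* (90.8 to 106 TPM) and *GstE6* (70.3 to 106 TPM). *GstT4* overlapped with *GstE6*, and *GstD9* (76.3 to 91.1 TPM) overlapped with both *GstT4* and *GstE6*. The order within these pairs is not resolved, while *GstO2* lay above *GstT4* and *GstE6*. *GstD1* lay above *GstE12* in every library, but in controls by only a little: the lowest control value of *GstD1* was 803 TPM and the highest control value of *GstE12* was 799 TPM.

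**Figure D1:**
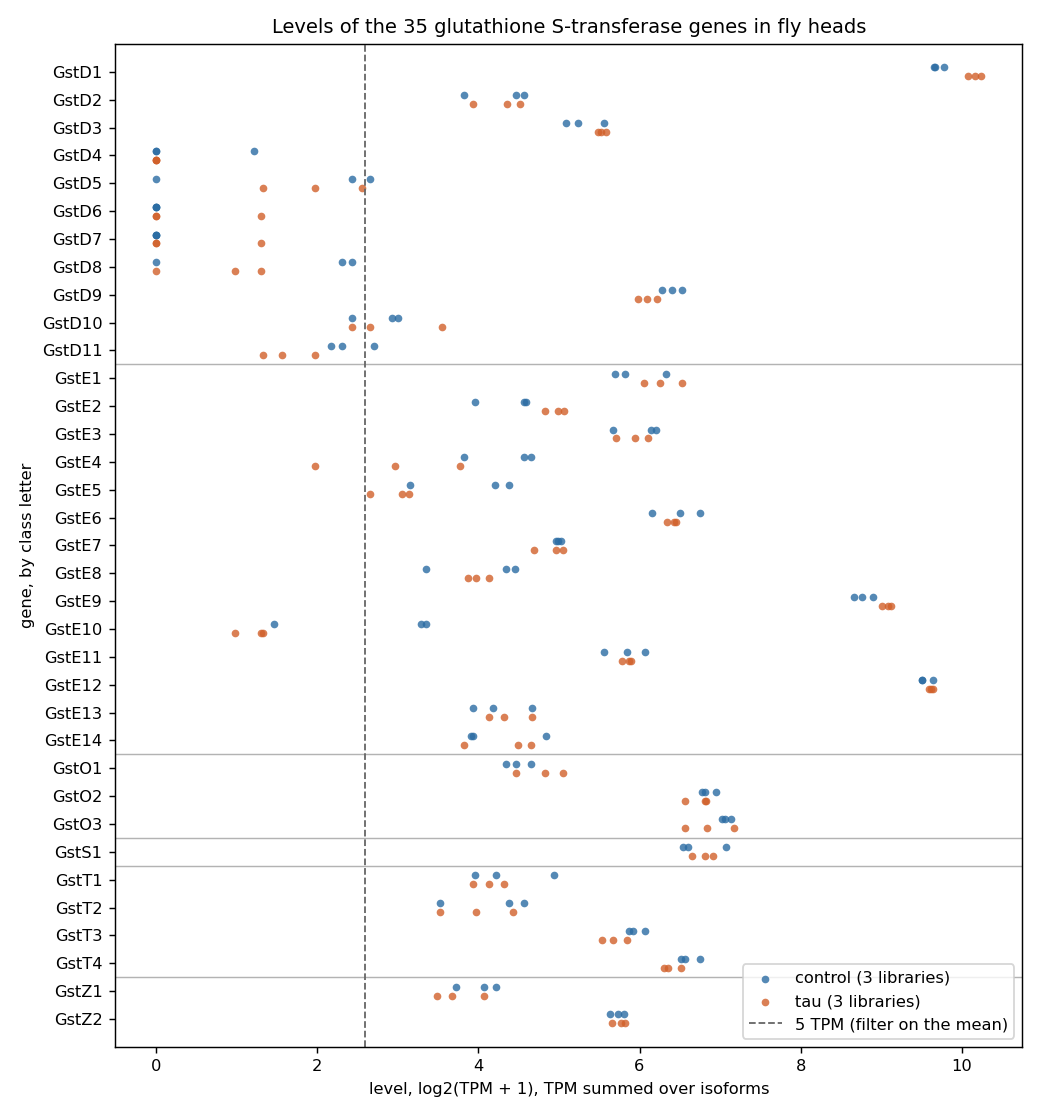
Level of each of the 35 transferase genes in each library, as log2(TPM + 1) on the horizontal axis, with genes grouped by class letter, 3 control libraries in blue and 3 tau libraries in orange. *GstD1*, *GstE12* and *GstE9* stand above 400 TPM in all libraries, and 7 genes have a mean under the dashed line at 5 TPM.

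The question asked of the family was whether its members differ between tau and control heads. Of the 28 genes tested, 1 passed at an adjusted p of 0.05 or less (limma on log2(TPM + 1), with Benjamini-Hochberg adjustment over all 8963 genes). Over all genes, 97 passed, or 1.08%, and 57 of these, or 0.636%, were higher in tau. The member was *GstD1*, which was higher in tau, and 0 members were lower past the threshold. The members lay on both sides of 0, with 13 higher and 15 lower. Their median log2 fold change was -0.04, the same as that of all genes tested, and their median change in size was 0.20 against 0.22 for all genes. At an unadjusted p under 0.05 there were 5 members (*GstD1*, *GstE2*, *GstE4*, *GstE5* and *GstE9*), beside 8.16% of all genes. For 24 of the 28 members the 95% interval of the log2 fold change lay within 1 of 0. *GstD10*, *GstE2*, *GstE4* and *GstE5* are the 4 others. The intervals are on log2(TPM + 1), where halving the TPM of a low gene gives a change under 1 in size. With lower bounds of -0.94, -0.98 and -0.97, a halving of *GstT1*, *GstT2* and *GstZ1* is not outside the interval.

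Control and tau libraries were fully apart for 8 of the 28 members, or 28.6%, against 13.0% of all genes tested. With a log2 fold change of at least 0.5 in size as well, there were 3 (*GstE2*, *GstE4* and *GstE5*), beside 7.29% of all genes. Of the 8, *GstD1*, *GstE2* and *GstE9* were higher in tau, and *GstD9*, *GstE4*, *GstE5*, *GstT3* and *GstT4* were lower. For some the gap between the highest tau and the lowest control library was narrow. It lay between 7.81 and 7.90 TPM for *GstE5*, 90.6 and 90.8 TPM for *GstT4*, and 12.7 and 13.2 TPM for *GstE4*. Except for *GstD1*, all had an adjusted p above 0.05, so the direction of each is a description of these 6 libraries.

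**Figure D2:**
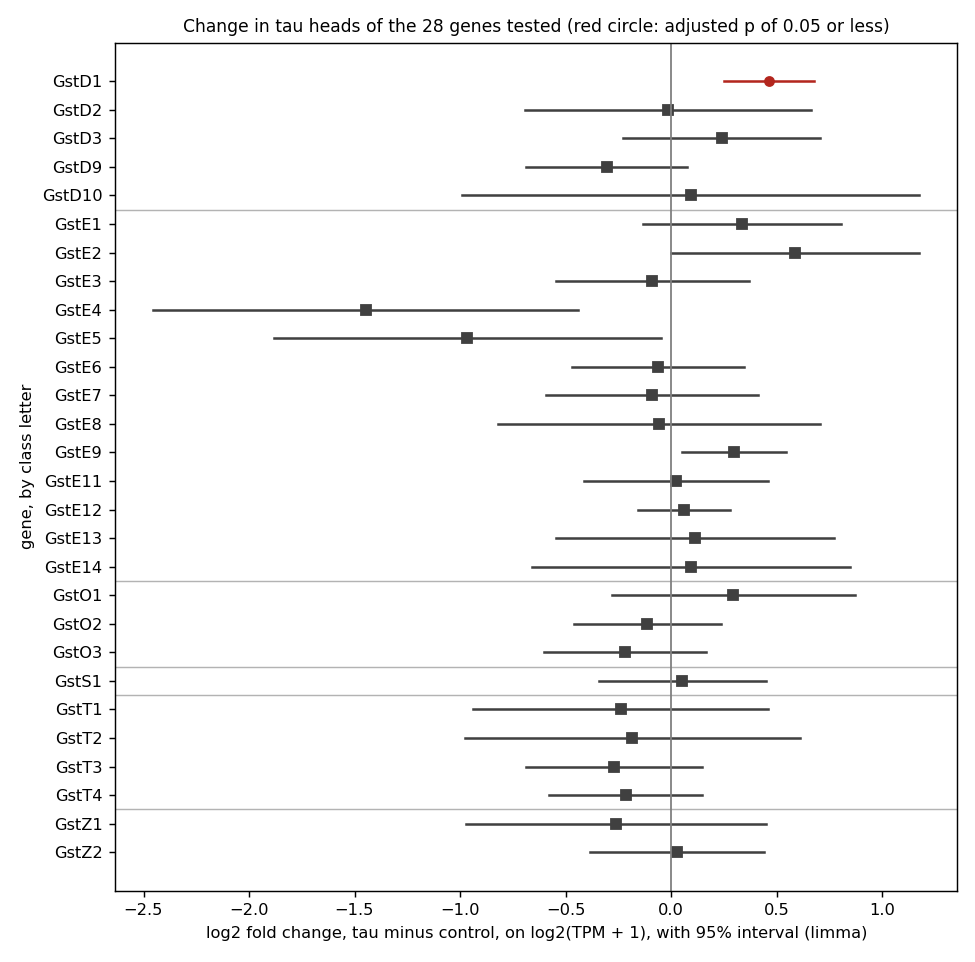
Log2 fold change, tau minus control, of the 28 transferase genes tested, on log2(TPM + 1), with the 95% interval from limma as a horizontal line. *GstD1* at 0.46 is the only gene past the threshold (red circle), and the widest intervals are those of *GstD10* and *GstE4*, which had few reads.

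*GstD1* (FBgn0001149) encodes the main delta class transferase, known for its action on DDT and on products of lipid peroxidation. It lies on the minus strand of chromosome arm 3R at chr3R:12367817-12369268 (dm6) and has 2 exons. *GstD1* was at 882, 803 and 812 TPM in control replicates 1 to 3 and at 1083, 1149 and 1210 TPM in tau replicates 1 to 3. These values rest on 803, 610 and 465 reads in controls and on 741, 1528 and 1240 reads in tau. Every tau library lay above every control library. The mean was 832 ± 43.2 TPM in controls and 1147 ± 63.7 TPM in tau (SD, n = 3 each), and the log2 fold change was 0.46 (SE 0.10, 95% interval 0.25 to 0.68), or 1.38-fold, with an adjusted p of 0.0415 in limma. The call is close to the threshold. Without control replicate 2, control replicate 3, tau replicate 2 or tau replicate 3, the adjusted p (limma) was 0.134, 0.238, 0.150 and 0.230, while without control replicate 1 or tau replicate 1 it was 0.0398 and 0.0493. The log2 fold change stayed between 0.42 and 0.51 in these 6 fits. The call was also lost with no filter on low values (adjusted p 0.118), with median ratio scaling (0.0577) and without a trend of variance on level (0.662), the log2 fold change being 0.46, 0.49 and 0.46.

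Both annotated isoforms of *GstD1* cover the same interval and differ little in length, 825 nt for GstD1-RA and 843 nt for GstD1-RB. NanoCount gave each of them 50.0% of the reads in 5 libraries, and 50.6% and 49.4% in tau replicate 2. The reads therefore did not separate the isoforms, and each isoform carried about the change of the gene, with a log2 fold change of 0.47 for GstD1-RA (adjusted p 0.0831 over isoforms, limma) and 0.46 for GstD1-RB (adjusted p 0.0925). Of the 38 transferase isoforms tested, 0 passed the threshold (6 had an unadjusted p under 0.05, limma), beside 97 of 12800 isoforms, or 0.758%.

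A ratio between members within a library does not depend on how libraries are scaled. The ratio of *GstD1* to *GstE12*, the gene of nearest level, was 1.10, 1.11 and 1.12 in control replicates 1 to 3 and 1.41, 1.47 and 1.52 in tau replicates 1 to 3. The values of the genotypes were apart, and the exact permutation p was 0.1, the smallest that 3 libraries against 3 allow (two-sided, adjusted p 0.133 over 4 ratios chosen after the values were seen). With the pair chosen in this way, the p adds nothing to the values of *GstD1*. *GstE12* (FBgn0027590, chr2R:24766718-24768172, minus strand) itself was at 799, 725 and 726 TPM in controls and at 769, 782 and 796 TPM in tau. These libraries overlapped, and the log2 fold change of *GstE12* was 0.06 (SE 0.10, 95% interval -0.15 to 0.28, adjusted p 0.960 in limma). The precision for *GstE12* was thus about that for *GstD1*.

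**Figure D3:**
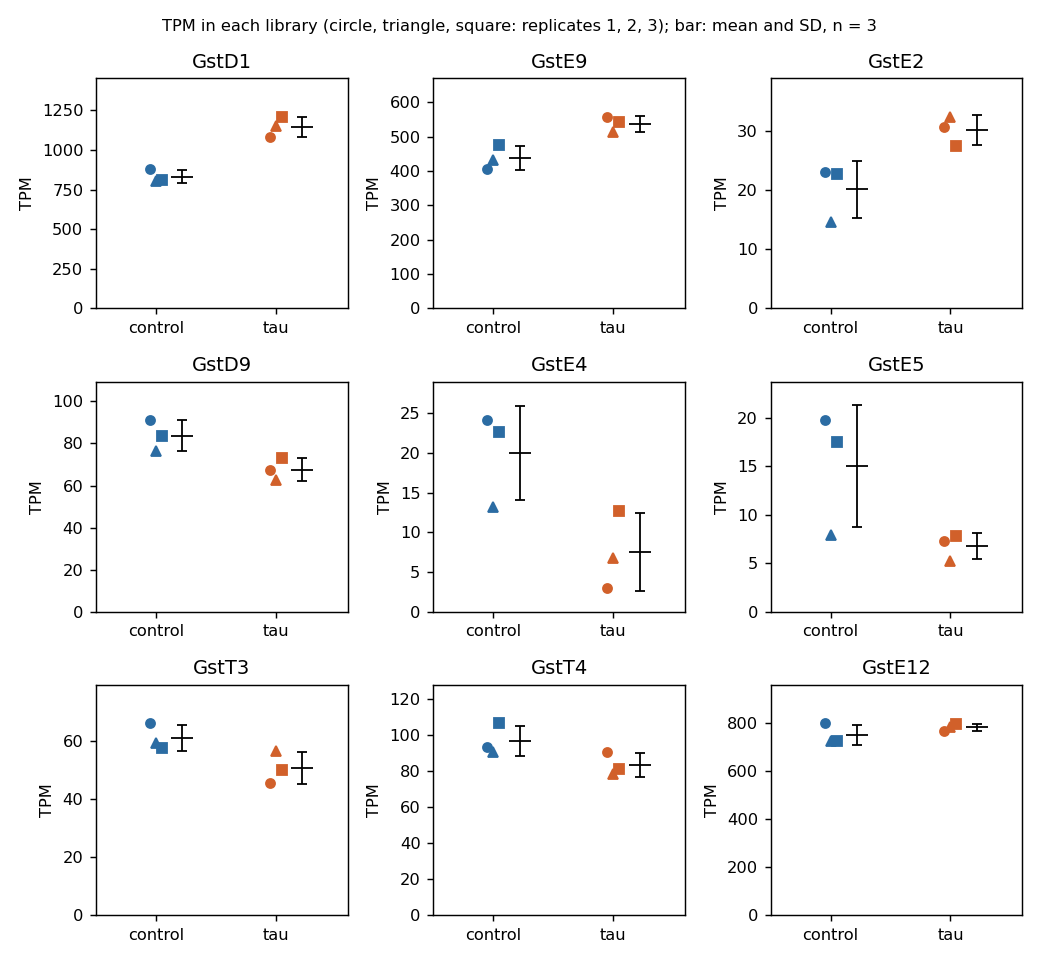
TPM in each library for the 8 tested transferase genes whose genotypes did not overlap and for *GstE12*, with control in blue, tau in orange, replicates 1 to 3 as circle, triangle and square, and black bars for the mean and SD (n = 3). All vertical axes start at 0. The tau libraries of *GstD1* lie between 1083 and 1210 TPM, above the controls at 803 to 882 TPM, and those of *GstE12* overlap with its controls.

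The other class D genes had far lower levels than *GstD1*, and 0 of the 4 tested passed the threshold (0 with an unadjusted p under 0.05, limma). All 11 genes of the class lie within 20.8 kb of chromosome arm 3R. *GstD10*, *GstD9* and *GstD1* are on the minus strand with 2 exons each, *GstD2* to *GstD8* are on the plus strand with a single exon, and *GstD11* is on the plus strand with 3 or 4 exons. *GstD9*, which lies 252 bp from *GstD1* on the same strand, was at 91.1, 76.3 and 83.8 TPM in controls and at 67.2, 62.4 and 73.2 TPM in tau. Every tau library of *GstD9* was thus below every control library, opposite to its neighbour, but the log2 fold change of -0.30 (SE 0.18) did not pass (adjusted p 0.755, limma; chosen after its values were seen). The ratio of *GstD1* to *GstD9* was 9.67, 10.5 and 9.69 in controls and 16.1, 18.4 and 16.5 in tau (exact permutation p 0.1, adjusted p 0.133). With *GstD1* higher and *GstD9* lower in every tau library, this ratio had to come out apart. Its p was thus fixed by the choice of the pair and adds nothing to the values of the genes.

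*GstD3* had a mean of 38.6 TPM in controls and 45.3 TPM in tau, and *GstD2* of 19.0 and 18.6 TPM. Their libraries overlapped, with log2 fold changes of 0.24 and -0.01. *GstD10* rested on 3 to 11 reads in a library, and its interval from -0.99 to 1.18 leaves its direction unresolved. *GstD4*, *GstD6* and *GstD7* had 1 read each in all 6 libraries together. *GstD5*, *GstD8* and *GstD11* had at most 5 reads in a library and were not tested. Within this gene cluster, reads came mostly from the *GstD1* locus: the class D sum without *GstD1* was 158 ± 5.77 TPM in controls and 145 ± 14.1 TPM in tau, with overlapping libraries, while the whole class was at 990.1 ± 41.2 and 1292 ± 69.9 TPM (SD, n = 3).

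Class E held the larger share of the family, with 1605 ± 59.4 TPM in controls and 1727 ± 25.5 TPM in tau. The class sums did not overlap between the genotypes, at 1537 to 1649 TPM in controls and 1701 to 1752 TPM in tau, but without *GstE9* and *GstE12* they did, at 417 ± 33.7 and 407 ± 29.8 TPM. Of its 14 genes 13 were tested, 7 of them higher and 6 lower in tau, and 0 passed the threshold, with 4 at an unadjusted p under 0.05 and a lowest adjusted p of 0.279, for *GstE4* (limma).

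**Figure D4:**
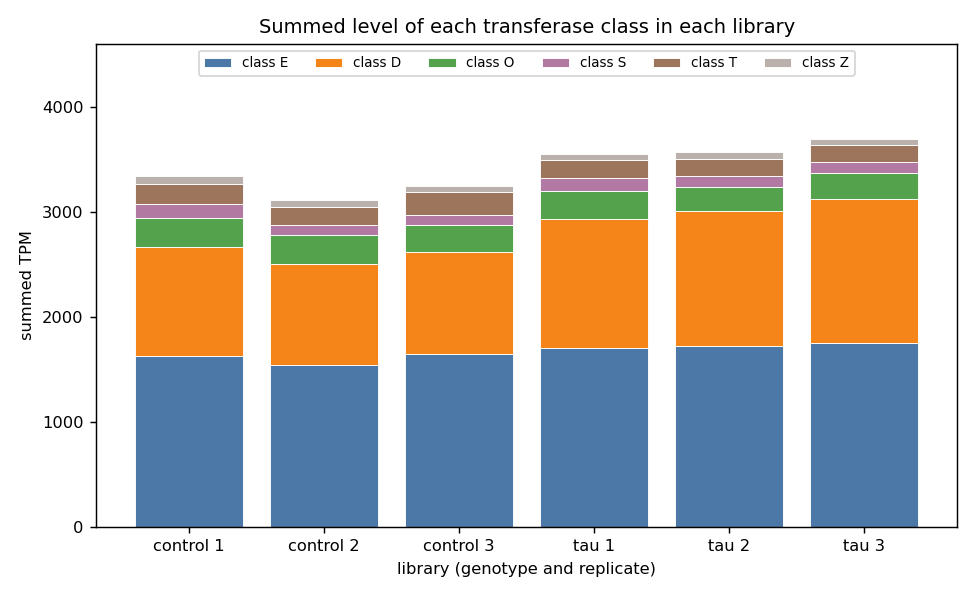
Summed TPM of each transferase class (stacked bars, from 0) in each of the 3 control and 3 tau libraries. The sum of all classes is 3113 to 3341 TPM in controls and 3555 to 3699 TPM in tau, and classes D and E make up most of every bar.

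The 10 genes *GstE1* to *GstE10* lie within 13.2 kb of chromosome arm 2R, where *GstE1* to *GstE9* follow each other on the plus strand with a single exon each and *GstE10* lies on the minus strand, overlapping the start of *GstE1* by 127 bp. *GstE9*, the last of the row, was the most abundant of them, at 405, 432 and 476 TPM in controls and 558, 513 and 542 TPM in tau. The libraries did not overlap, and the mean was 438 ± 36.0 TPM in controls and 538 ± 22.9 TPM in tau. The log2 fold change of *GstE9* was 0.30 (SE 0.11, 95% interval 0.05 to 0.54) and missed the threshold (adjusted p 0.440, limma; chosen after its values were seen). The ratio of *GstE9* to *GstE12* overlapped between the genotypes, with 0.586 ± 0.0750 in controls and 0.687 ± 0.0358 in tau (exact permutation p 0.2, adjusted p 0.2).

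*GstE2* (chr2R:18399486-18400375) was at 23.1, 14.5 and 22.7 TPM in controls and at 30.7, 32.3 and 27.3 TPM in tau. All 3 tau libraries of *GstE2* were above all controls, on 11 to 43 reads, with a log2 fold change of 0.59 (SE 0.27, 95% interval 0.00 to 1.17, adjusted p 0.610 in limma). *GstE1*, upstream of it, had a log2 fold change of 0.34 with overlapping libraries, at 61.7 ± 15.3 TPM in controls and 77.3 ± 12.7 TPM in tau.

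*GstE4* and *GstE5*, next to each other in the middle of the row, had the lowest fold changes of the 28 genes tested. *GstE4* (chr2R:18403248-18404086) was at 24.2, 13.2 and 22.7 TPM in controls and at 2.92, 6.77 and 12.7 TPM in tau, from 22, 10 and 13 reads and from 2, 9 and 13 reads. The highest tau library and the lowest control library of *GstE4* were thus close to each other. Its log2 fold change was -1.45 (SE 0.47, 95% interval -2.45 to -0.44, adjusted p 0.279 in limma), and it ranged from -1.88 to -0.98 when a library was left out. The ratio of *GstE4* to *GstE3*, its abundant neighbour, was 0.333, 0.263 and 0.325 in controls and 0.0571, 0.10 and 0.210 in tau (exact permutation p 0.1, adjusted p 0.133). The pair was chosen after the values were seen, with *GstE4* already apart, so this p adds nothing to the values of *GstE4*.

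*GstE5* (chr2R:18404605-18405338) was at 19.8, 7.90 and 17.5 TPM in controls and at 7.31, 5.26 and 7.81 TPM in tau. Control replicate 2 of *GstE5* lay just above the tau libraries and the other controls well above. The log2 fold change was -0.97 (SE 0.42, 95% interval -1.88 to -0.05, adjusted p 0.577 in limma) on 5 to 18 reads. The genes on either side of this pair were near 0, with log2 fold changes of -0.09 for *GstE3* and -0.06 for *GstE6*, and *GstE7* and *GstE8* had -0.09 and -0.06. *GstE10*, not tested, had 8, 7 and 1 reads in controls and 1, 2 and 1 reads in tau, and with 4 libraries at or under 3 reads no fold change is given.

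**Figure D5:**
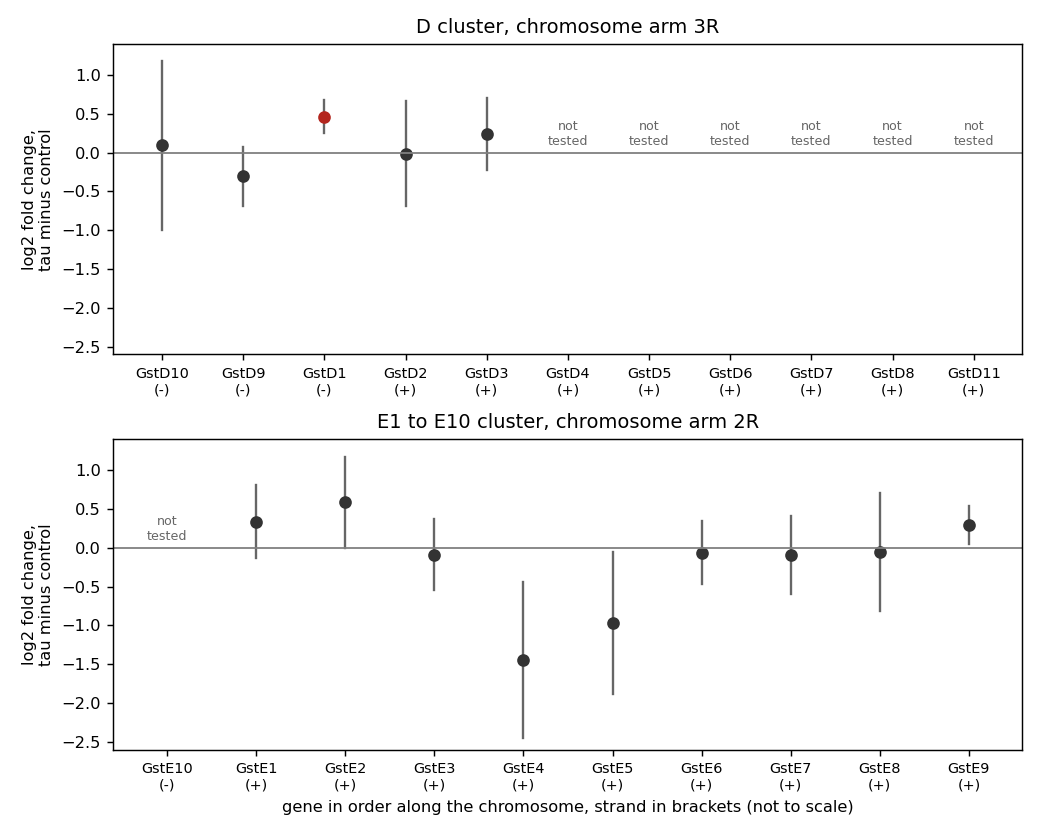
Log2 fold change, tau minus control, with its 95% interval (limma) for the genes of the D cluster (upper panel) and the E1 to E10 cluster (lower panel), in their order along the chromosome and not to scale, with the strand in brackets. *GstD1* (red) at 0.46 stands beside *GstD9* at -0.30, and *GstE4* and *GstE5* lie at -1.45 and -0.97 between genes near 0.

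The remaining class E genes lie elsewhere on chromosome arm 2R. *GstE11*, *GstE13* and *GstE14* had means of 56.3, 18.6 and 18.6 TPM in controls and 56.7, 19.98 and 19.6 TPM in tau, with overlapping libraries. *GstE14*, also known as *noppera-bo*, is required for making the moulting hormone ecdysone, and its log2 fold change was 0.09 (95% interval -0.66 to 0.85). *GstE12* was read almost wholly as GstE12-RA, which made up 94.98% ± 1.07 of the gene in controls and 94.6% ± 1.14 in tau.

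The omega genes *GstO1*, *GstO2* and *GstO3* lie together on chromosome arm 3L, with *se* between *GstO3* and *GstO2*. Omega transferases carry a cysteine in the active site and act as thiol transferases and reductases. *GstO3*, the most abundant, was at 139, 133 and 129 TPM in controls and at 143, 93.2 and 113 TPM in tau. Its tau libraries spread from below to above the controls, and its log2 fold change was -0.22 (SE 0.18, adjusted p 0.860 in limma). *GstO2* was at 109, 122 and 112 TPM in controls and 93.5, 113 and 111 TPM in tau, with a log2 fold change of -0.11 (SE 0.16, adjusted p 0.956). Its isoform GstO2-RB made up 84.8%, 79.6% and 79.7% of the gene in controls and 87.5%, 84.0% and 87.7% in tau. The shares overlapped, with a mean difference of 5.04 percentage points (exact permutation p 0.2, adjusted p 1.0 over 10 isoforms). *GstO1* had 21.5 ± 2.51 TPM in controls and 26.8 ± 5.56 TPM in tau.

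*GstS1*, the only sigma gene, encodes a transferase that is abundant in flight muscle and acts on the lipid peroxidation product 4-hydroxynonenal. It was at 134, 92.1 and 96.0 TPM in controls and at 120, 111 and 99.5 TPM in tau. The tau libraries lay within the range of the controls, and the log2 fold change was 0.05 (SE 0.18, 95% interval -0.34 to 0.45), with a sign that turned when control replicate 2, control replicate 3 or tau replicate 1 was left out (-0.04, -0.02 and -0.01). GstS1-RB was the main isoform, with 70.7% ± 6.05 in controls and 72.0% ± 5.72 in tau. GstS1-RA and GstS1-RD had identical values in every library and were not told apart.

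All 4 theta genes were lower in tau, with log2 fold changes from -0.27 to -0.18, and 0 of them passed (lowest adjusted p 0.828 in limma, 0 with an unadjusted p under 0.05). *GstT4* was at 93.3, 90.8 and 106 TPM in controls and at 90.6, 78.2 and 81.0 TPM in tau. The highest tau library of *GstT4* was just under the lowest control, and the log2 fold change was -0.22 (SE 0.17, adjusted p 0.856). *GstT3* had a log2 fold change of -0.27 (SE 0.19), with 60.9 ± 4.39 TPM in controls and 50.5 ± 5.58 TPM in tau and no overlap. *GstT1*, at 20.6 TPM in controls and 16.6 TPM in tau, and *GstT2*, at 17.7 and 15.2 TPM, overlapped.

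The zeta class is the family of maleylacetoacetate isomerase, an enzyme of tyrosine breakdown. *GstZ2* was at 54.9, 48.7 and 52.4 TPM in controls and at 49.7, 55.6 and 53.7 TPM in tau, with a log2 fold change of 0.03 (SE 0.19, 95% interval -0.38 to 0.44). These values overlapped, as did those of *GstZ1*, at 15.2 ± 2.73 and 12.6 ± 2.88 TPM.

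The spread between libraries of the same genotype was set beside that of counting alone, without a test. An index compared the spread of reads within genotypes with that expected from counting. Under pure counting its mean is 1 and its median lies below 1. The index had a median of 1.01 over the 28 genes and was under 2 in 23 of them. It was highest for *GstO3* at 2.62 and was 2.38 for *GstD1*. Among the genes with few reads, it was 2.02 for *GstE4* and 1.19 for *GstE5*.

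Related genes of glutathione metabolism gave 0 calls in either direction among 26 tested of 27 listed (3 with an unadjusted p under 0.05, limma), with 14 higher, 12 lower and a median log2 fold change of 0.05. The 5 genes of glutathione synthesis and breakdown (*Gclc*, *Gclm*, *Gss1*, *Gss2* and *Ggt-1*) had log2 fold changes from 0.05 to 0.20 and overlapping libraries. *Gss1* and *Gss2*, near-identical neighbours, shared their reads almost evenly and are in effect a single measurement, although both enter the counts above. The omega relative *se*, which makes an eye pigment precursor, was at 40.6, 29.0 and 26.2 TPM in controls and at 20.5, 25.6 and 19.5 TPM in tau. Each tau library of *se* was below each control, and the log2 fold change was -0.51 (SE 0.26, adjusted p 0.706). Among the peroxidases and glutaredoxins, *PHGPx*, which reduces lipid peroxides, had 269 ± 26.9 TPM in controls and 373 ± 25.01 TPM in tau (log2 fold change 0.47, adjusted p 0.154), and *Grx1* had 112 ± 8.14 and 156 ± 22.7 TPM (log2 fold change 0.47, adjusted p 0.337). Neither overlapped between the genotypes (both chosen after their values were seen). Of the 26 related genes tested, 4 had genotypes fully apart, *se* among them, beside 13.0% of all genes tested. The regulator *cnc* was at 14.1 ± 11.7 TPM in controls and 22.7 ± 8.45 TPM in tau, and its repressor *Keap1* at 6.87 ± 3.53 and 8.37 ± 3.71 TPM. Both overlapped, and the interval of *cnc*, from -0.19 to 1.87 on the log2 scale, is wide. The 3 export pumps of the list had log2 fold changes from -0.59 to -0.27 with overlapping libraries.

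Markers of the tissues in a head were read beside these results. Neuron markers summed to 431 to 565 TPM in controls and 362 to 575 TPM in tau, although *elav* itself had at most 2 reads in a library, and glia markers to 918 to 1150 and 881 to 1238 TPM. Photoreceptor markers summed to 36558 to 40790 TPM in controls and 41096 to 48697 TPM in tau, which did not overlap, through the rhodopsin gene *ninaE* (log2 fold change 0.33, adjusted p 0.0709). Fat body markers, from a tissue rich in detoxifying enzymes, summed to 3148 to 3454 TPM in controls and 2440 to 3029 TPM in tau, also without overlap. Its members were not uniform. The log2 fold change was -0.47 for *fon* (adjusted p 0.327, limma) and -0.20 for *apolpp*, which carry most of the sum. *FASN1* was also lower in tau, and the list median was -0.20. *Lsp2* had 1.72 (adjusted p 0.411, limma) and *Lpin* 0.11. Muscle markers, which bear on *GstS1*, summed to 530 to 687 TPM in controls and 676 to 819 TPM in tau. All 5 were higher in tau, with log2 fold changes from 0.18 to 0.41. Of them 2 had an unadjusted p under 0.05, and the lowest adjusted p was 0.463 (limma). Hemocyte markers summed to 137 to 217 TPM in controls and 163 to 215 TPM in tau, and *He* among them had at most 3 reads in a library. No marker passed the threshold among those tested, and the part of these tissues in the levels of *GstD1* and the other members was not tested.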

How the data were processed

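Direct RNA sequencing was analysed for 3 control and 3 tau libraries of 500 heads each. The 6 short-read libraries were not used. Base calling by the authors was with Guppy, and reads of quality 9 or more went to minimap2 against FlyBase transcripts (10 secondary alignments allowed). NanoCount then gave the TPM of each isoform that the authors deposited. For tau against control, the authors also deposited DESeq2 results: a mean normalized signal, a log2 fold change and its error on the log2 scale, a test score, and p-values. None of these was used.

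TPM was summed by gene. The table gave no gene for 37 isoforms, which were assigned from the Ensembl release 115 annotation (Release 6 assembly, dm6), the source of coordinates, exons and lengths. Reads were recovered from the step between low TPM values; between 95.3% and 96.0% of gene values above 0 and between 48.6% and 52.0% of isoform values were whole. Genes with a mean of at least 5 TPM were tested on log2(TPM + 1), a scale that understates changes of low genes, with limma (version 3.58.1, R version 4.3.3; lmFit, eBayes with trend, two-sided, all 6 libraries, no covariate). A Benjamini-Hochberg adjusted p of 0.05 or less was called. Isoforms were tested likewise. For isoform shares and ratios, an exact permutation test over 10 splits was used. Class sums were given without a test. Counting floors cover counting error only. The study describes the libraries as biological replicates; whether they came from separate crosses is not given in the sources used here, and p-values measure the spread between libraries.

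Members and lists were chosen with earlier results of these data known. Genes named were those called, those with genotypes apart and a log2 fold change of at least 0.5 in size, the most abundant of each class, and the 4 most abundant with at least 2 isoforms over the filter; related genes were named if they met either of the first 2 conditions. Others given with values were chosen after these were seen. Alternatives were pseudocounts of 0.5 and 5, no filter, a mean of at least 20 TPM, median ratio scaling, no trend, a replicate block, each library left out, isoforms with values shared between genes left out and, added after the data were seen, voom on recovered reads. Searches of promoter motifs and protein identity were not run. The steps were tested on simulated data for tau against control genes. Changed genes were drawn from those at 20 TPM or more, with a dispersion set at 0.02. Of 200 genes given a log2 change of 1, 146 were recovered (8951 tested, 3 false calls). Of 200 given a change of 2, 198 were recovered (8874 tested, 9 false calls), and 0 of 8966 were called without a change. Changes smaller than 1 were not simulated. These rates thus do not cover members under 20 TPM or a change of the size seen for *GstD1*. Python (version 3.11.15), numpy (version 2.4.6), pandas (version 2.3.3), scipy (version 1.17.1) and matplotlib (version 3.10.9) were used.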

Additional observations from a re-analysis of the deposited data

How the results depend on the processing

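The count of called transferase genes was 0 in place of 1 with no filter on low values, with median ratio scaling, without the variance trend and with the replicate block, and ranged from 0 to 1 over the fits that left out a library; it was 1 in the others. Called isoforms were 0, except 1 (GstD1-RA) under the filter at 20 TPM. The log2 fold change of *GstS1* turned to -0.045, -0.016 and -0.0078 (range -0.045 to 0.22) and that of *GstZ2* to -0.018 and -0.0079 (range -0.018 to 0.072) when a library was left out. *GstE4* and *GstE5* have no value under that filter. Over all genes, 97 calls became 42 with no filter, 4 without the trend, 32 without control replicate 3 and 50 without tau replicate 3; over all isoforms, 97 became 0, 5, 25 and 29, 41 without tau replicate 1 and 55 without tau replicate 2. The causes were not tested. Replicate numbers did not pair the libraries (correlations of same-numbered libraries -0.00, 0.07 and -0.07), and with the replicate block 77 genes were called and the adjusted p of *GstD1* was 0.133 (limma). Depth limits the members with few reads: the floor of 3 reads is 5.24 TPM in the shallowest library.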

Other observations

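*GstE13*, at 13 to 25 reads in a library, is annotated with 2 isoforms, GstE13-RA of 862 nt and GstE13-RB of 1061 nt. GstE13-RB made up 50.0% of the gene in all 3 control libraries, where the reads did not separate the isoforms, and 86.9%, 67.1% and 63.9% in tau replicates 1 to 3. This share was chosen after its values were seen and was not tested. The levels of the isoforms did not pass, with log2 fold changes of 0.59 for GstE13-RB (adjusted p 0.730 over isoforms, limma) and -0.74 for GstE13-RA (adjusted p 0.790). The level of the gene overlapped between the genotypes, at 18.6 ± 5.24 TPM in controls and 19.98 ± 4.02 TPM in tau (SD, n = 3). *GstD11*, not tested, had 5, 3 and 2 reads in controls and 2 reads in each tau library. Among NADPH-supplying genes, *Men* had 482 ± 63.2 TPM in controls and 361 ± 69.0 TPM in tau (log2 fold change -0.43, adjusted p 0.402 in limma), and *Idh* 538 ± 8.50 and 479 ± 28.04 TPM (log2 fold change -0.17, adjusted p 0.790).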
